A study of Mus musculus with 6 samples.

Results

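Connexins and pannexins form channels between cells or between a cell and its surroundings, and their transcripts were followed here through treatment of NMuMG cells (a cultured line of mouse mammary epithelium) with TGF-β and the calcium entry modulator 2APB. The genes described were the listed symbols Gja1, Gjb1, Gjb2, Gjb5, Gjc1 and Panx1, picked by name with earlier results of these data known, and all 6 were among the 18512 entries of the deposited gene count table. RNA-seq libraries numbered 6, in 3 groups of 2, and the replicates of a group are described as biological. Cells were DMSO treated (vehicle), given 5 ng/ml TGF-β, or given 5 ng/ml TGF-β plus 50 uM 2APB (TGF-β+2APB), and no group received 2APB alone. The treatment is described as 24 h in one place, while the methods place 2APB 24 h ahead of TGF-β, and the timing was not settled here.

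Connexins are named by their approximate mass and pass the membrane several times. Connexin subunits assemble into a hexameric hemichannel, and hemichannels of neighbouring cells dock end to end as a gap junction that passes ions, second messengers such as IP3 and small metabolites. Pannexins share the membrane topology but not the sequence, rarely dock, and in the case of PANX1 release ATP to the outside. 2APB blocks several connexin channels in addition to its actions on store-operated calcium entry and IP3 receptors, which is the reason these genes were examined. Protein, channel opening and dye transfer were not measured in these libraries.

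The libraries held between 71840570 and 79473182 counts, and every deposited value was even. The log2 difference between replicates had an SD over genes of 0.367 in DMSO, 0.611 in TGF-β and 0.828 in TGF-β+2APB. Epithelial markers were mixed: Krt8, Krt18 and Cdh1 held 35416 counts or more in every library, whereas Epcam held 52 to 158 counts and Cldn7 2 to 6. Krt19 held 45904 and 40792 counts in DMSO, 12844 and 8458 in TGF-β, and 1704 and 3488 in TGF-β+2APB. Cldn4 held 2 and 6, 732 and 716, and 2108 and 1550 in the same order. With TGF-β, 6 of 6 tested genes of this 8-gene list were called (edgeR FDR 0.05 or less), against 41.5% of all tested genes. Krt8, Krt18 and Cldn4 were higher, and Cdh1, Epcam and Krt19 lower. TGF-β+2APB replicate 2 stood apart in leukocyte markers, with 31700 normalized counts summed over 7 genes against 347 to 4362 in the other 5 libraries, and Lyz2 alone had 29060 counts there. A list of 4 salivary gland markers summed to 1572 in TGF-β replicate 2, 3536 and 5176 in TGF-β+2APB and no more than 53.8 in the remaining libraries. The part of these signals in the results was not tested, and values without TGF-β+2APB replicate 2 are given where they bear on a call.

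In TGF-β, Gja1 took the place of Gjb1 as the member with the most counts. Gja1 (connexin 43) rose 8.76-fold and Gjc1 (connexin 45) 2.63-fold, whereas Gjb1 (connexin 32) fell to 17.5-fold below DMSO. Panx1 differed by less than the test could call, and the rare transcripts Gjb2 and Gjb5 gave no call. Of the 5 members that passed the minimum mean of 20 normalized counts, 3 were called at an FDR of 0.05 or less by the edgeR quasi-likelihood test, 2 of them higher and 1 lower in TGF-β. Over all 13355 genes tested the same rule called 41.5%, with 21.8% higher and 19.7% lower, so that a call as such was common in this comparison. The median log2 fold change was 1.40 over the 5 members, 0.61 over the 4 without Gjb5, which reached the minimum through the TGF-β groups where it was high, and -0.0103 over all tested genes.

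Addition of 2APB to TGF-β was followed by a further fall of Gjb1, which was 22.0-fold below TGF-β alone. No member was called in the direction back towards its DMSO level. Gja1 was higher by 0.47 on the log2 scale without passing the threshold, and Gjc1 and Panx1 differed by less. In this comparison 1 of the 5 tested members was called, and it was lower, against 17.5% of all tested genes, 6.58% higher and 10.9% lower. The members' median log2 fold change was -0.30 (-0.11 without Gjb5) and that of all tested genes -0.00355. The single call is not firm: the FDR of Gjb1 ran from 0.00599 to 0.133 over 15 alternatives and passed the threshold in 9 of them.

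In TGF-β+2APB against DMSO, which shares libraries with both comparisons above, Gja1 was 12.1-fold and Gjc1 2.79-fold higher, and Gjb1 and Panx1 were lower, Panx1 by 1.39-fold. The test called 4 of the 5 tested members, 2 in each direction, where 52.7% of all tested genes were called, 25.6% higher and 27.2% lower. The median log2 fold change was 1.48 for the 5 members, 0.50 for the 4 without Gjb5 and -0.00321 for all tested genes.

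**Figure D1:**
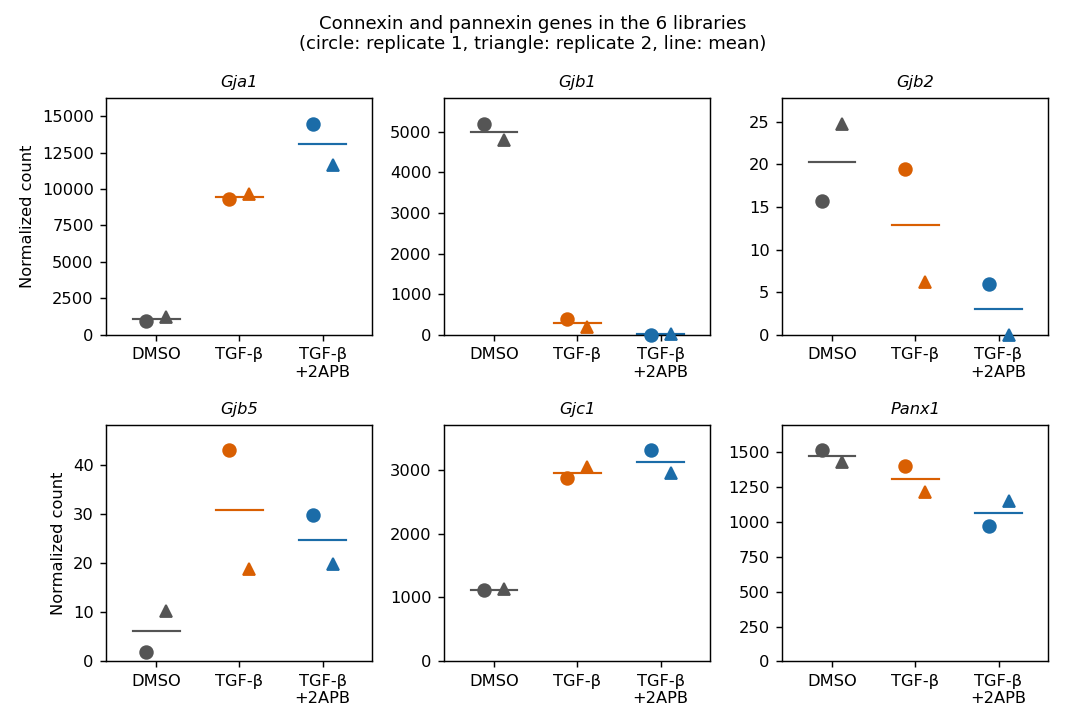
Normalized counts (vertical axis, linear from 0, counts scaled to the mean library) of the 6 members in the DMSO, TGF-β and TGF-β+2APB groups, with a circle for replicate 1, a triangle for replicate 2 and a line at the mean. Gja1 and Gjc1 lie higher in both TGF-β groups than in DMSO, Gjb1 lies near 0 in both TGF-β+2APB libraries, and Gjb2 and Gjb5 do not pass 42.9 normalized counts in any library.

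Gja1 encodes connexin 43, the most widely expressed connexin, which is found in fibroblasts, cardiac muscle and the myoepithelium of mammary gland. The gene lies at chr10:56377330-56402513 on the plus strand of GRCm38. Gja1 held 978 and 1166 counts in DMSO, 9592 and 9280 in TGF-β, and 14654 and 11848 in TGF-β+2APB. The groups were ordered without overlap, DMSO lowest and TGF-β+2APB highest, and the spread was widest in TGF-β+2APB. Mean normalized counts were 1083 ± 172, 9491 ± 203 and 13100 ± 1990 (SD, n = 2). The log2 fold change in TGF-β against DMSO was 3.13 (SE 0.161, edgeR FDR 0.000121). Against TGF-β alone, TGF-β+2APB differed by 0.47 (SE 0.147, 95% interval 0.10 to 0.83), which has an unadjusted p of 0.021 and an edgeR FDR of 0.0867. DESeq2 called this difference, at an adjusted p of 0.0209, and it was 0.27 (edgeR FDR 0.438) without TGF-β+2APB replicate 1. Without TGF-β+2APB replicate 2 it was 0.61 (edgeR FDR 0.0854). Against DMSO the TGF-β+2APB value was 3.60 (SE 0.164, edgeR FDR 5.24e-05).

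Mesenchymal markers rose along with Gja1 in TGF-β. The normalized counts of an 8-gene list summed to 432900 and 438300 in DMSO, 839100 and 916700 in TGF-β, and 972600 and 1041000 in TGF-β+2APB. With TGF-β 7 of the 7 tested genes were called higher, against 21.8% of all tested genes. With 2APB added to TGF-β 3 of the 7 were called, 2 higher and 1 lower, against 17.5%. Of 6 markers of myoepithelium, Krt5, Krt14, Trp63, Myh11 and Oxtr held 0 to 12 counts in each library and were not tested. The remaining one, Acta2, which is also on the mesenchymal list, held 20 and 10 counts in DMSO, 110 and 46 in TGF-β and 92 and 88 in TGF-β+2APB, a log2 rise by 2.36 with TGF-β (SE 0.532, edgeR FDR 0.0169). The part of these markers in the rise of Gja1 was not tested.

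The 250 bases ahead of the Gja1 start in RefSeq are shown because Gja1 had the largest called rise among the members. They come from the RefSeq promoter table of GRCm38.p6, chr10:56377050-56377299 on the plus strand, and capitals mark the only match to the AP-1 element TGANTCA, searched on both strands.
Gja1: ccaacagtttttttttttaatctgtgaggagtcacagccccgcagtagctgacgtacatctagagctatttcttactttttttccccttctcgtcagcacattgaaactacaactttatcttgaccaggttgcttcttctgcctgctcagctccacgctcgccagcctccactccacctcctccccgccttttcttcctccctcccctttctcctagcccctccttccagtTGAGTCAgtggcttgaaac
The match began 19 bases before that RefSeq start, which lies 30 bases upstream of the start of the GENCODE locus given above. The same element occurred in 6.75% of the 32851 promoter windows of this length, and a match of letters is no evidence of binding. No match to the E-box CAGGTG or to GTTAAT was present in this window.

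Gjc1 encodes connexin 45, the connexin of embryonic heart and vessel wall, which can pair with connexin 43. It lies at chr11:102799579-102819700 on the minus strand. Gjc1 held 1132 and 1094 counts in DMSO, 2944 and 2930 in TGF-β, and 3334 and 2986 in TGF-β+2APB. Replicates were close, and each library of both TGF-β groups held more counts than each DMSO library. Mean normalized counts were 1122 ± 12.5, 2955 ± 122 and 3125 ± 251 (SD, n = 2). The rise with TGF-β was 1.40 on the log2 scale (SE 0.087, edgeR FDR 0.000204), and TGF-β+2APB lay 1.48 above DMSO (SE 0.0871, edgeR FDR 0.000101). Set against TGF-β alone, the TGF-β+2APB libraries differed by 0.08 on the log2 scale, with a 95% interval of -0.13 to 0.29 (edgeR FDR 0.552), so that a change beyond the ends of that interval was not found. Its sign turned to -0.03 without TGF-β+2APB replicate 1.

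Gjb1 encodes connexin 32, the main gap junction protein of hepatocytes and of myelinating Schwann cells, also found in secretory epithelia. It lies at chrX:101376378-101385629 on the plus strand. Gjb1 held 5294 and 4648 counts in DMSO, 384 and 188 in TGF-β, and 0 and 26 in TGF-β+2APB. The groups did not overlap, and 1 of the TGF-β+2APB libraries held no count at all. Mean normalized counts were 5005 ± 284, 284.7 ± 127 and 12.83 ± 18.1 (SD, n = 2). On the log2 scale Gjb1 fell by 4.13 with TGF-β (SE 0.593, edgeR FDR 0.00341). With 2APB added it fell by 4.46 below TGF-β alone (SE 0.803, 95% interval -6.45 to -2.47, edgeR FDR 0.0189), and the value of TGF-β+2APB against DMSO was -8.59 (SE 0.809, edgeR FDR 0.00049).

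The size of the last fall rests on a few reads. Without TGF-β+2APB replicate 2 the group held no Gjb1 count. A floor of 3 counts in the remaining library placed Gjb1 there at least 1684-fold below DMSO and at least 95.8-fold below TGF-β. These bounds cover counting error in that library, not the spread between replicates, and replicate 2 held 26 counts. Every deposited count was even, and if each read had been counted double the same floor would be 6 counts, with bounds of 842-fold and 47.9-fold. Without TGF-β+2APB replicate 1 the fitted changes were -7.61 against DMSO and -3.50 against TGF-β. The losses of the call against TGF-β included the fits without DMSO replicate 1 (FDR 0.0698) or DMSO replicate 2 (0.0701), the test by DESeq2 (0.0544) and the fit of the 4 libraries compared (0.133), whereas the calls against DMSO held under every alternative in which Gjb1 was tested.

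Markers of hepatocytes fell along with Gjb1 in TGF-β. The normalized counts of a 12-gene list summed to 134500 and 144100 in DMSO, 14790 and 20480 in TGF-β, and 8647 and 11620 in TGF-β+2APB. Outside DMSO that sum was mostly Hnf4a, at 14080 and 19130 in TGF-β and 8492 and 11440 in TGF-β+2APB. With TGF-β 9 of the 9 tested genes were called lower, against 19.7% of all tested genes, and Hnf4a fell by 1.35 on the log2 scale. With 2APB added to TGF-β 4 of the 9 were called, all lower, against 10.9%. Hnf4a was not called there (log2 -0.74, edgeR FDR 0.0531). Alb held 32124 and 27900 counts in DMSO, 96 and 40 in TGF-β, and 40 and 20 in TGF-β+2APB. Its difference between TGF-β+2APB and TGF-β was not called (log2 -1.19, edgeR FDR 0.145). Fga held 1762 and 1600, 110 and 52, and 0 and 0 counts in the same order, and was called lower with 2APB added (edgeR FDR 0.00712). Apoa2, Ahsg and Tat were not tested and held no more than 14, 10 and 10 counts in any library. In bulk RNA, fewer cells that express Gjb1 and less Gjb1 RNA per cell cannot be told apart, and the part of these markers in the fall of Gjb1 was not tested.

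Gjb1 has 4 promoter windows in the RefSeq table of GRCm38.p6, and those that held a match to a searched motif are shown because Gjb1 had the largest fall among the members. The first lies at chrX:101376985-101377234 and the second at chrX:101383482-101383731, both on the plus strand. Capitals mark GTTAAT, a half-site of the hepatic factor HNF1, and the E-box CAGGTG, to which repressors of the SNAI and ZEB families bind.
Gjb1 first shown window: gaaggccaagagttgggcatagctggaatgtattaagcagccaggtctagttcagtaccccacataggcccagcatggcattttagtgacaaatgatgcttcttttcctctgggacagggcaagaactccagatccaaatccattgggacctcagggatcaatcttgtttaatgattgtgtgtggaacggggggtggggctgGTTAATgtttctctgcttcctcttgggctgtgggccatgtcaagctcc
Gjb1 second shown window: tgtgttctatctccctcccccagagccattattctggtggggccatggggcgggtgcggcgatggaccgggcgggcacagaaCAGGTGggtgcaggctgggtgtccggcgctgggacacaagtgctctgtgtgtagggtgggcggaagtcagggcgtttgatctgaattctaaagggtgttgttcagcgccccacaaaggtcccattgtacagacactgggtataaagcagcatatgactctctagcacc
The half-site began 48 bases and the E-box 168 bases before the RefSeq start that follows the end of its window. On either strand GTTAAT occurred in 6.43% and CAGGTG in 17.2% of all 32851 windows. These shares are per window, and a gene with 4 windows holds a match in any of them more often. The windows of Gjb5 and Panx1 held none of the 3 motifs, and that of Gjb2 held 1 E-box.

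Gjb2 encodes connexin 26, which joins connexin 32 in liver and in lactating mammary gland. It lies at chr14:57098600-57104702 on the minus strand. Gjb2 held 16 and 24 counts in DMSO, 20 and 6 in TGF-β, and 6 and 0 in TGF-β+2APB. DMSO and TGF-β overlapped, and both TGF-β+2APB libraries were at or below the lowest library of the other groups. With a mean of 12.03 normalized counts Gjb2 stayed below the minimum of 20 and was not tested in the main comparisons. Without the minimum its log2 fold change was -0.65 in TGF-β against DMSO (edgeR FDR 0.71), -2.07 in TGF-β+2APB against TGF-β (edgeR FDR 0.362) and -2.72 in TGF-β+2APB against DMSO (95% interval -5.74 to 0.30, edgeR FDR 0.142), so that a difference was not detectable at this depth.

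Gjb5 encodes connexin 31.1, a connexin of skin and placenta. It lies at chr4:127354809-127358181 on the minus strand. Gjb5 held 2 and 10 counts in DMSO, 44 and 18 in TGF-β, and 30 and 20 in TGF-β+2APB. Every library of both TGF-β groups was above both DMSO libraries, at levels close to the limit of counting. Its mean of 20.6 normalized counts lay just above the minimum, which it passed through the TGF-β groups. The log2 fold changes were 2.31 in TGF-β against DMSO (SE 0.803, 95% interval 0.32 to 4.31, edgeR FDR 0.0663) and 2.00 in TGF-β+2APB against DMSO (SE 0.807, edgeR FDR 0.0859). Addition of 2APB to TGF-β gave a log2 difference of -0.32 with a 95% interval of -2.08 to 1.45. The first became a call without TGF-β replicate 2 (FDR 0.0419) and the second without DMSO replicate 2 (log2 3.57, FDR 0.0484), and no other alternative gave one.

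Panx1 encodes pannexin 1, the channel through which many cells release ATP. It lies at chr9:15002128-15045478 on the minus strand. Panx1 held 1540 and 1386 counts in DMSO, 1438 and 1172 in TGF-β, and 982 and 1164 in TGF-β+2APB. DMSO and TGF-β overlapped in these counts but not after scaling, and both TGF-β+2APB libraries were lowest. Mean normalized counts were 1473 ± 57.8, 1309 ± 131 and 1061 ± 125 (SD, n = 2). TGF-β differed from DMSO by -0.17 on the log2 scale (95% interval -0.47 to 0.13, edgeR FDR 0.313), and TGF-β+2APB from TGF-β by -0.30 (SE 0.123, edgeR FDR 0.15). Relative to DMSO, TGF-β+2APB fell by 0.47 (SE 0.123, 95% interval -0.78 to -0.17, edgeR FDR 0.0209). That call was lost without DMSO replicate 1 (FDR 0.121), DMSO replicate 2 (0.0815) or TGF-β+2APB replicate 1 (0.141), and it held without TGF-β+2APB replicate 2 (0.0405). Panx2 and Panx3, the other pannexins, held 0 to 2 counts in each library.

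**Figure D2:**
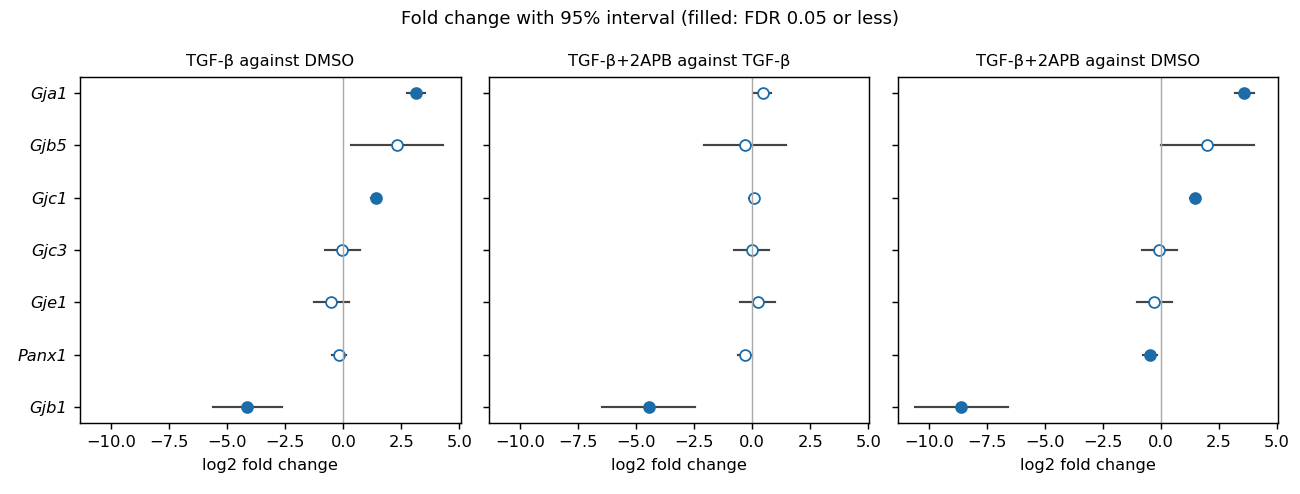
Log2 fold changes (horizontal axis) of 7 tested connexin and pannexin genes in each comparison, with 95% intervals as lines and filled points at an edgeR FDR of 0.05 or less. The filled points of Gja1 and Gjc1 lie to the right in TGF-β against DMSO and that of Gjb1 far to the left, and in TGF-β+2APB against TGF-β the filled point is Gjb1.

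A wider look at the family put these genes in context. Of 21 mouse connexin and pannexin symbols examined, 19 were among the entries of the table, and 7 passed the minimum mean. The 2 that passed beside the members, Gjc3 and Gje1, were not called in any comparison, with log2 fold changes of -0.05 and -0.52 in TGF-β against DMSO. The calls over these 7 genes were therefore those of the members: 3 with TGF-β, 1 with 2APB added to TGF-β, and 4 in TGF-β+2APB against DMSO. Gja4 (connexin 37, of endothelium) held 8 to 28 counts and was not tested. Reads were assigned by the study to genes, and it is not given in the sources used here how reads that match several related connexin genes were counted.

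**Figure D3:**
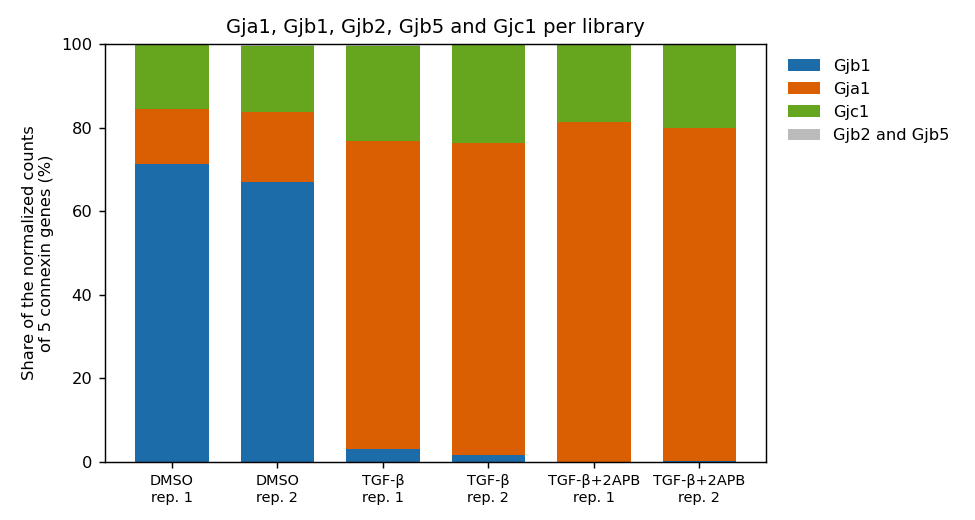
Share of each connexin (vertical axis, %) in the normalized counts summed over the 5 connexin members, with 1 stacked bar per library. The lowest segment, Gjb1, takes 71.3% and 67.0% of the DMSO bars and 2.96% or less of the other 4 bars, where Gja1 holds 73.9% to 81.3%, and Gjb2 and Gjb5 are too small to see.

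Set against each other, the 5 connexin members changed both in sum and in make-up. Their summed normalized counts were 7237 ± 86.9 in DMSO, 12770 ± 172 in TGF-β and 16270 ± 2240 in TGF-β+2APB (SD, n = 2). Gjb1 made up 69.1 ± 3.09% of that sum in DMSO, 2.24 ± 1.02% in TGF-β and 0.0874 ± 0.124% in TGF-β+2APB. The share of Gja1 was 15.0 ± 2.56%, 74.3 ± 0.587% and 80.5 ± 1.19%, and that of Gjc1 15.5 ± 0.359%, 23.1 ± 0.646% and 19.3 ± 1.11%. For both genes the shares of the 3 groups did not overlap, and with 2APB added to TGF-β the share of Gja1 was larger and that of Gjc1 smaller. Gjb2 and Gjb5 each stayed at or below 0.346% in every library. These shares refer to the members alone, and counts are not corrected for transcript length.

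For an order of levels between the members, normalized counts were divided by the length of the longest coding transcript in kb. In DMSO, Gjb1 was highest at 3158 ± 179 per kb, followed by Gjc1 at 485 ± 5.5, Gja1 at 341 ± 54.1 and Panx1 at 257 ± 9.99 (SD, n = 2). In TGF-β the order was Gja1 at 2983 ± 63.8, Gjc1 at 1277 ± 52.9 and Panx1 at 228 ± 22.7, and Gjb1, at 180 ± 79.9, overlapped Panx1. In TGF-β+2APB it was Gja1 at 4117 ± 627, Gjc1 at 1350 ± 108 and Panx1 at 185 ± 21.8, and Gjb1 had dropped to 8.1 ± 11.4. Gjb5 and Gjb2 stayed low throughout, with group means per kb of 3.58 to 17.9 and 1.24 to 8.43. Gja1 is most exposed to the choice of length, since its annotated exons cover 10257 bases in all against 3182 in the transcript used.

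For each member, the tested genes nearest in pattern were found by the distance between centred log2 profiles over the 6 libraries, which share their depth scaling. Nearest to Gja1 were Ctla2b (distance 0.284) and Lrrc8c (0.313), a subunit of volume-regulated anion channels. Lrrc8c stood at 684 and 686 normalized counts in DMSO, 6198 and 5926 in TGF-β and 7955 and 6980 in TGF-β+2APB. Nearest to Gjc1 were Zeb1 (0.0871), a repressor of epithelial genes, with 3709 and 3717, 8969 and 9829, and 11050 and 9882 normalized counts, and Actn1 (0.106), an actin crosslinker. The neighbours of Gjb1 lay farther off: Rasal1 (1.34), with 0 and 15.8 normalized counts in TGF-β+2APB, and Ugt2b36 (2.55), a glucuronosyltransferase of the liver. Panx1 was nearest to 1600014C10Rik (0.0972) and Fkbp8 (0.0986), Gjb5 to Apol9a (1.2) and Loxl1 (1.28), and Gjb2 to Ecscr (1.78) and Tmeff2 (1.95). The profiles of Gjb2 and Gjb5 rest on few counts, and their neighbours were replaced when no minimum or at least 10 counts in every library was required, as were those of Gjb1 under the latter.

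Proteins that bind, sort, phosphorylate or remove connexins were examined as a list of 13 genes, all of which were tested. With TGF-β 7 were called, 4 higher and 3 lower, against 41.5% of all tested genes, and the median log2 fold change was 0.0431. Cav1, caveolin 1, which associates with connexin 43, held 3116 and 2976 counts in DMSO, 11936 and 11720 in TGF-β, and 7574 and 7890 in TGF-β+2APB. It rose by 1.96 with TGF-β (SE 0.0721, edgeR FDR 5.25e-05) and fell by 0.64 when 2APB was added (SE 0.0697, edgeR FDR 0.00582), and it was the only called gene of the list in the latter comparison, where the median was -0.0617. Tjp1, the scaffold ZO-1 that binds the connexin 43 tail, went from 31168 and 30572 counts in DMSO to 19022 and 19336 in TGF-β and 18916 and 18904 in TGF-β+2APB, a fall by 0.69 (SE 0.0705, edgeR FDR 0.00106) with no call between the last groups.

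Src, a kinase that closes connexin 43 channels, rose by 0.61 (SE 0.0888, edgeR FDR 0.00353) and Dbn1, drebrin, by 0.58 (SE 0.095, edgeR FDR 0.00546) with TGF-β. Of the 13, 11 were called in TGF-β+2APB against DMSO, 6 higher and 5 lower, against 52.7% of all tested genes, with a median of -0.0098. This count was 7 without DMSO replicate 1, DMSO replicate 2 or TGF-β+2APB replicate 1. The largest there were Cav1 at 1.32, Tjp1 at -0.74, Dbn1 at 0.71 and Mapk3, the kinase ERK1, at -0.57 (edgeR FDR 7.72e-05, 0.000516, 0.00177 and 0.0074). The counts of this list moved with the libraries used: between 3 and 8 were called in TGF-β against DMSO when 1 library was left out, with 4 and 3 called without DMSO replicate 1 and DMSO replicate 2.

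The route that ATP takes after its release by pannexin channels was examined as a list of 27 genes: P2X and P2Y receptors for nucleotides, enzymes that degrade ATP to adenosine, adenosine receptors, and the caspases that open PANX1 by cleavage. Of these, 20 were tested. With TGF-β 10 were called, 4 higher and 6 lower, against 41.5% of all tested genes, and the median log2 fold change was -0.67. Addition of 2APB to TGF-β gave 10 calls, 1 higher and 9 lower, against 17.5%, with a median of -0.44. The comparison of TGF-β+2APB with DMSO gave 14, 4 higher and 10 lower, against 52.7%, with a median of -0.52. P2rx2, P2rx6, P2rx7, P2ry14 and Entpd1 reached the minimum mean of 20 normalized counts only with the TGF-β+2APB libraries included. Over the other 15 tested genes the calls were 9 (3 higher), 10 (1 higher) and 12 (2 higher) in the same order, with medians of -0.80, -0.73 and -1.07.

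**Figure D4:**
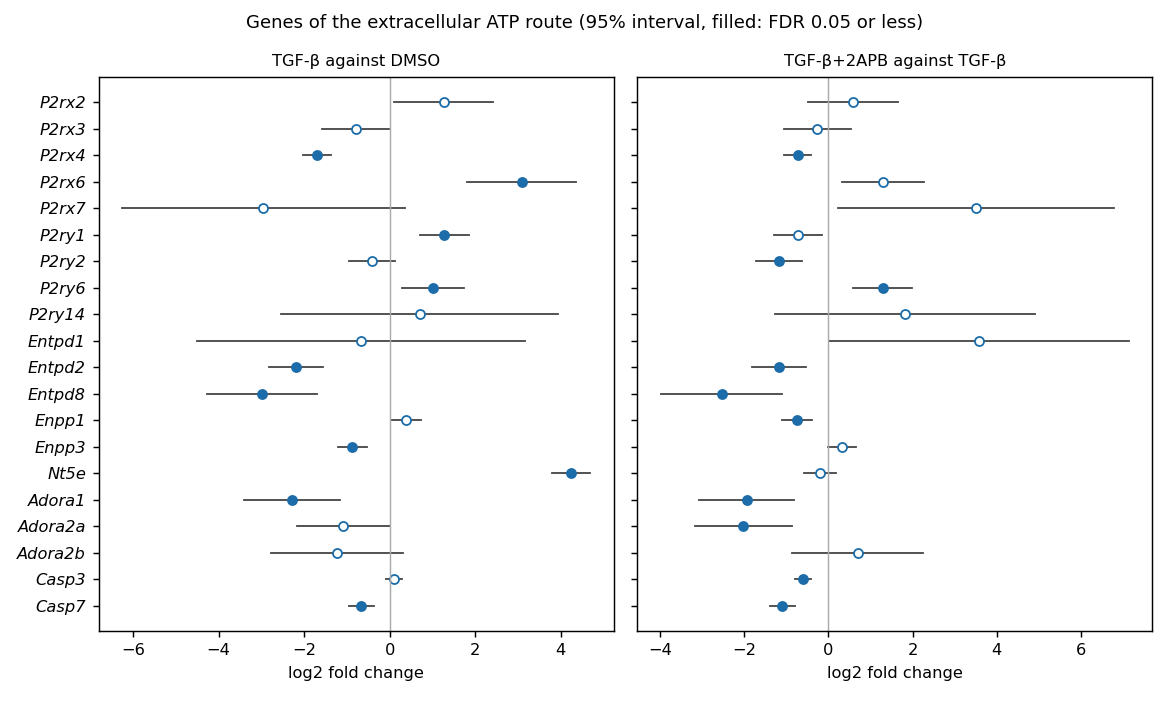
Log2 fold changes (horizontal axis) of the 20 tested genes of the extracellular ATP list in TGF-β against DMSO and in TGF-β+2APB against TGF-β, with 95% intervals as lines and filled points at an edgeR FDR of 0.05 or less. Nt5e lies farthest to the right in the first comparison, P2ry6 is the only filled point to the right in the second, and the intervals of P2rx7, P2ry14 and Entpd1 are wide.

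Among the enzymes, Nt5e (CD73, which makes adenosine from AMP) and Entpd8 (which removes phosphates from ATP and ADP) moved apart. Entpd2 was lower as Entpd8 was, at 6868 and 6264 counts in DMSO, 1696 and 1190 in TGF-β, and 488 and 806 in TGF-β+2APB. Its log2 change was -2.20 with TGF-β (SE 0.256, edgeR FDR 0.00165) and -1.18 with 2APB added to TGF-β (SE 0.255, edgeR FDR 0.0318). Nt5e held 666 and 624 counts in DMSO, 11210 and 13204 in TGF-β, and 12078 and 9570 in TGF-β+2APB, a rise by 4.24 with TGF-β (SE 0.178, edgeR FDR 7.25e-05). Adding 2APB left a difference of -0.20 (95% interval -0.59 to 0.18) that was not called. Entpd8 held 578 and 522, 70 and 68, and 4 and 20 counts in the same order. It fell by 2.99 with TGF-β (SE 0.52, edgeR FDR 0.00663) and fell by 2.54 more with 2APB (SE 0.581, edgeR FDR 0.0371), the second of which was called in 10 of 15 alternatives and ran from -4.09 without TGF-β+2APB replicate 2 to -1.84 without TGF-β+2APB replicate 1.

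Among the receptors, the adenosine receptor Adora1 held 12124 and 10726 counts in DMSO, 2862 and 1850 in TGF-β, and 332 and 908 in TGF-β+2APB. It fell by 2.29 with TGF-β (SE 0.453, edgeR FDR 0.0106) and fell by 1.94 with 2APB added (SE 0.458, edgeR FDR 0.0401, called in 9 of 16 alternatives). Adora2a, at 246 and 178 counts in TGF-β and 28 and 78 in TGF-β+2APB, fell by 2.02 in that comparison (SE 0.467, edgeR FDR 0.0382, called in 9 of 16 alternatives). Without TGF-β+2APB replicate 2 the log2 changes of Adora1 and Adora2a with 2APB were -2.85 and -2.94, and without TGF-β+2APB replicate 1 they were -1.43 and -1.49. P2ry6, a receptor for UDP, was the 1 gene of the list called higher with 2APB, by 1.28 (SE 0.285, edgeR FDR 0.0341, called in 8 of 16 alternatives). P2ry6 held 156 and 102 counts in TGF-β and 294 and 342 in TGF-β+2APB. P2rx6, an ATP-gated channel subunit, held 2 counts in each DMSO library, 22 and 14 in TGF-β and 52 and 38 in TGF-β+2APB. It was called with TGF-β (edgeR FDR 0.00576) but not without DMSO replicate 1 (FDR 0.0518), and its fold changes rest on few DMSO counts.

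The largest changes of the list in TGF-β+2APB against DMSO were those of Entpd8 at -5.53, P2rx6 at 4.38, Adora1 at -4.23 and Nt5e at 4.04 on the log2 scale (edgeR FDR 0.000868, 0.000986, 0.00109 and 4.66e-05). That of P2rx6 depends on the group through which it passed the minimum. P2rx7, Entpd1 and P2ry14 had 68, 120 and 162 counts in TGF-β+2APB replicate 2 against 4, 4 and 12 in replicate 1, and none was called in any comparison. The leukocyte markers were high in the same library, and their part in these values was not tested. Without that library 9 genes of the list were called when TGF-β+2APB was set against TGF-β and 14 when it was set against DMSO. Only 2 were called in the former comparison without DMSO replicate 1 or DMSO replicate 2, and 6 without TGF-β+2APB replicate 1. In TGF-β against DMSO 4 were called without DMSO replicate 1.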

How the data were processed

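Per the study's methods, the authors sequenced poly(A) RNA as single-end reads, checked them with FastQC 0.11.2, aligned them with TopHat2 2.0.13 and summarized them per gene with featureCounts. The deposited values are raw counts per gene, whole numbers not scaled between libraries. The submitters' processing notes name the mouse build mm10, the methods text names a human build, and the symbols are those of mouse. Gene annotation, strand setting and treatment of reads with several alignments are not given in the sources used here. All values were even, and 25 gene names had been turned into dates and were left unnamed. Total counts per library ran from 71840570 to 79473182, and the floor of 3 counts covers counting error only.

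The analysis used edgeR 4.0.16 (with limma 3.58.1, R 4.3.3). TMM factors scaled the libraries, the 13355 genes whose mean reached 20 normalized counts were kept, and a single quasi-likelihood model covered the 3 groups with no covariate. P-values were adjusted by Benjamini-Hochberg over all tested genes, and an FDR of 0.05 or less was called. The SE was obtained as the log2 fold change over the root of the F statistic, and 95% intervals use the total degrees of freedom of the fit. The biological coefficient of variation was 17.4%. The procedure was run on simulated data with the same dispersion for every gene and group. The replicate spread of the real libraries differed between groups, so that the simulation does not cover it. P-values set each group difference against a spread estimated over all 6 libraries, 2 per group. That shared estimate does not follow the unequal spread of the groups. Alternatives were RLE or library size scaling, DESeq2 1.42.0, no filter, at least 10 counts in every library, a replicate block, fits of 4 libraries, halved counts, an FDR of 0.01 and each library left out. A replicate block with the TGF-β+2APB numbers exchanged was added after seeing the data, and the tallies over alternatives include it. Fits of the lists, and of genes that are no members, under these alternatives were chosen after seeing the data.

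The genes named were the members, further genes of the family, up to 4 largest called changes of the partner and ATP lists in each comparison, and 2 pattern neighbours per member (distance between log2 profiles of CPM with 0.5 counts added, each centred on its mean). Other genes were named as markers, or after their values were seen. The members, lists and motifs were chosen with earlier results of these data known. Results for 2 genes of the family are not reported here. Positions and transcript lengths came from GENCODE M21 (GRCm38), to which 17551 of 18512 entries matched by symbol, and promoters from RefSeq GRCm38.p6, with none listed for Gjc1. Tables and plots were made with pandas 2.3.3 and matplotlib 3.10.9 under Python 3.11.15.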

Additional observations from a re-analysis of the deposited data

How the results depend on the processing

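Of 223 fold changes of single members under alternatives, 208 kept their direction and side of the threshold, 10 lost the call, 4 gained one and 1 turned sign, that of Gjc1 in TGF-β+2APB against TGF-β (-0.0334 to 0.158 with 1 library left out, lowest without TGF-β+2APB replicate 1). In TGF-β against DMSO and in TGF-β+2APB against DMSO the counts of called members stayed at 2 to 4 under every alternative. In TGF-β+2APB against TGF-β the 1 called member, also the 1 call over the 7 family genes, became 0 with at least 10 counts in every library (Gjb1 is then not tested), with the replicate block, in the fit of 4 libraries and at an FDR of 0.01. With 1 library left out both counts ranged from 0 to 1. The partner list, with 1 call there, had 2 with library size scaling and 5 with DESeq2, and from 1 to 5 with a library left out. With a library left out it ranged from 3 to 8 against 7 in TGF-β against DMSO and from 7 to 11 against 11 in TGF-β+2APB against DMSO, with 7 calls without DMSO replicate 1, DMSO replicate 2 or TGF-β+2APB replicate 1. The ATP list, with 10 calls in TGF-β+2APB against TGF-β, had 2 with the replicate block, in the fit of 4 libraries and at an FDR of 0.01, and from 2 to 9 with a library left out. In TGF-β against DMSO it ranged from 4 to 13 with a library left out. Other uncalled fold changes turned sign with 1 library left out: Gjc3 (-0.46 to 0.28 in TGF-β against DMSO, -0.35 to 0.39 in TGF-β+2APB against TGF-β, -0.22 to 0.099 in TGF-β+2APB against DMSO) and, in TGF-β+2APB against TGF-β, Src (-0.21 to 0.010) and Tjp1 (-0.10 to 0.012). Over all genes, the 2335 calls in TGF-β+2APB against TGF-β became 3696 with DESeq2, 1343 with the replicate block, 860 in the fit of 4 libraries and 601 at an FDR of 0.01, and the 5548 calls in TGF-β against DMSO became 3369 at an FDR of 0.01. With 1 library left out the 3 comparisons ranged from 2753 to 7640, 834 to 5405 and 4354 to 9006. Except where a filter, a threshold or fewer libraries set the count by construction, the cause was not tested. Replicate numbers came from the titles, and their deviations correlated by 0.137, -0.429 and -0.255 between groups, so that the numbers were not taken to pair the samples. The replicate block left 3, 0 and 4 calls, over the members as over the family genes, in the 3 comparisons. With the TGF-β+2APB numbers exchanged, a pairing chosen after seeing the data, 3, 2 and 4 were called. In TGF-β+2APB against TGF-β that pairing called Gjb1 (edgeR FDR 0.0126) and Gja1 (0.0348), and both are counted in the tallies over alternatives. With 2 libraries per group, genes at the level of Gjb2 and Gjb5 were limited by counting.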
